A study of Mus musculus with 12 samples.

Results

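Potassium channel genes were taken as every gene whose symbol starts with Kcn, followed by letters and a digit, on arrays of the mouse prefrontal cortex, with Kcnj13 left out. The arrays held 83 such gene names, read by 166 probe sets that carry a single gene symbol. A single probe set stood for each gene, the brightest by its mean log2 intensity across the 12 arrays, and the 58 genes with a mean of at least 5 were kept, of 11639 genes that met the same limit. The 25 others lay below the limit. The limit fell between Kcnd1 at 5.29, Kcnmb4os2 at 5.38 and Kcnq1 at 5.49 on the inside and Kcna5 at 4.72, Kcnj6 at 4.61 and Kcnj8 at 4.46 on the outside. By role, 20 members encode pore-forming subunits of voltage-gated channels, 6 silent modifier subunits, 6 inward rectifiers, 7 two-pore domain channels, 7 channels opened by calcium or sodium, or their relatives, and 10 auxiliary subunits. The remaining 2, Kcnq1ot1 and Kcnmb4os2, are non-coding transcripts that the name pattern takes in and that encode no channel.

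Potassium channels let potassium leave the cell, which pulls the membrane back towards rest. In cortical neurons the voltage-gated kinds end the action potential and set the firing rate, two-pore domain channels carry the leak current at rest, inward rectifiers hold the resting potential and buffer potassium in glia, and the channels opened by calcium or sodium slow firing after bursts. The pore-forming subunits of voltage-gated channels assemble in groups with partners that change gating or transport to the surface, and the silent modifiers work only in this way, since they form no channel by themselves.

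The tissue came from C57BL/6J mice, an inbred strain, kept in 12 h of light and 12 h of dark. The mice were obtained at 10 weeks of age, had 1 week to acclimatize and were then entrained for 1 week. Zeitgeber time (ZT) counts the hours since lights on, and 3 mice each were taken at ZT3 and ZT9, in the light, and at ZT15 and ZT21, in the dark, with 1 mouse per array. The block of cortex held neurons and glia together, so that fewer cells of a type and less RNA per cell cannot be told apart, and the mice stayed in the light cycle, so that time of day, light and sleep cannot be told apart either.

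Mean intensity was 392 to 398 on 4 arrays (ZT9 replicates 1 and 2, ZT15 replicate 3 and ZT21 replicate 3) and 344 to 374 on the other 8. Per2, a gene of the clock's negative loop that is known to cycle, was 3.07 higher at ZT15 than at ZT3 on the log2 scale (adjusted p = 9.57e-05 from limma). All 5 markers of cortical neurons, 5 of interneurons and 6 of astrocytes lay above the limit, while 3 of 4 markers of the olfactory bulb lay below it. The 4 striatal markers on the arrays also lay above the limit. Their summed intensity was 599 to 735 at ZT3, 710 to 1014 at ZT9, 684 to 811 at ZT15 and 635 to 833 at ZT21. The part of striatal tissue in the values of the channel genes was not tested. The summed intensity of 5 choroid plexus markers ran from 795 to 2133 at ZT3, from 1931 to 29570 at ZT9, from 2385 to 18920 at ZT15 and from 1636 to 5578 at ZT21. Of these markers, Folr1, Kl and Slco1a5 lay below the limit, and the part of this tissue in the values of the channel genes was not tested. Of 4 tested endothelial markers 1 passed the F-test over the 4 times described next, and the sum of the 5 on the arrays was 1074 to 1134 at ZT3, 846 to 1106 at ZT9, 938 to 1056 at ZT15 and 1191 to 1385 at ZT21, the highest at ZT21. The sum of 4 meningeal markers, none of which passed, reached 946 at ZT21 and 1339 at ZT9.

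The first question was whether any channel gene changed over the 4 times of day. Limma's F-test over the 4 time points called 0 of the 58 members at an adjusted p under 0.20, against 2.01% of all 24075 probe sets tested. The study used the same false discovery rate, but in another method, significance analysis of microarrays, on probe sets filtered by detection calls. The count of 0 is therefore not the outcome of the study's own criterion. At an unadjusted p under 0.05, 10 members stood (17.2%), against 15.6% of all probe sets, a share close to the background. These 10 were Kcnf1, Kcns2, Kcnh5, Kcnv1, Kcng1, Kcnt2, Kcnc1, Kcnj4, Kcnq3 and Kcnip4, with adjusted p between 0.232 and 0.315. The range of a gene, meaning its highest minus its lowest mean of the 4 times on the log2 scale, had a median of 0.24 over the members and of 0.26 over all genes. It ran from 0.07 for Kcnd1 to 0.80 for Kcng1, and 4 members (6.9%) had a range above 0.5, against 11.1% of all genes.

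**Figure D1:**
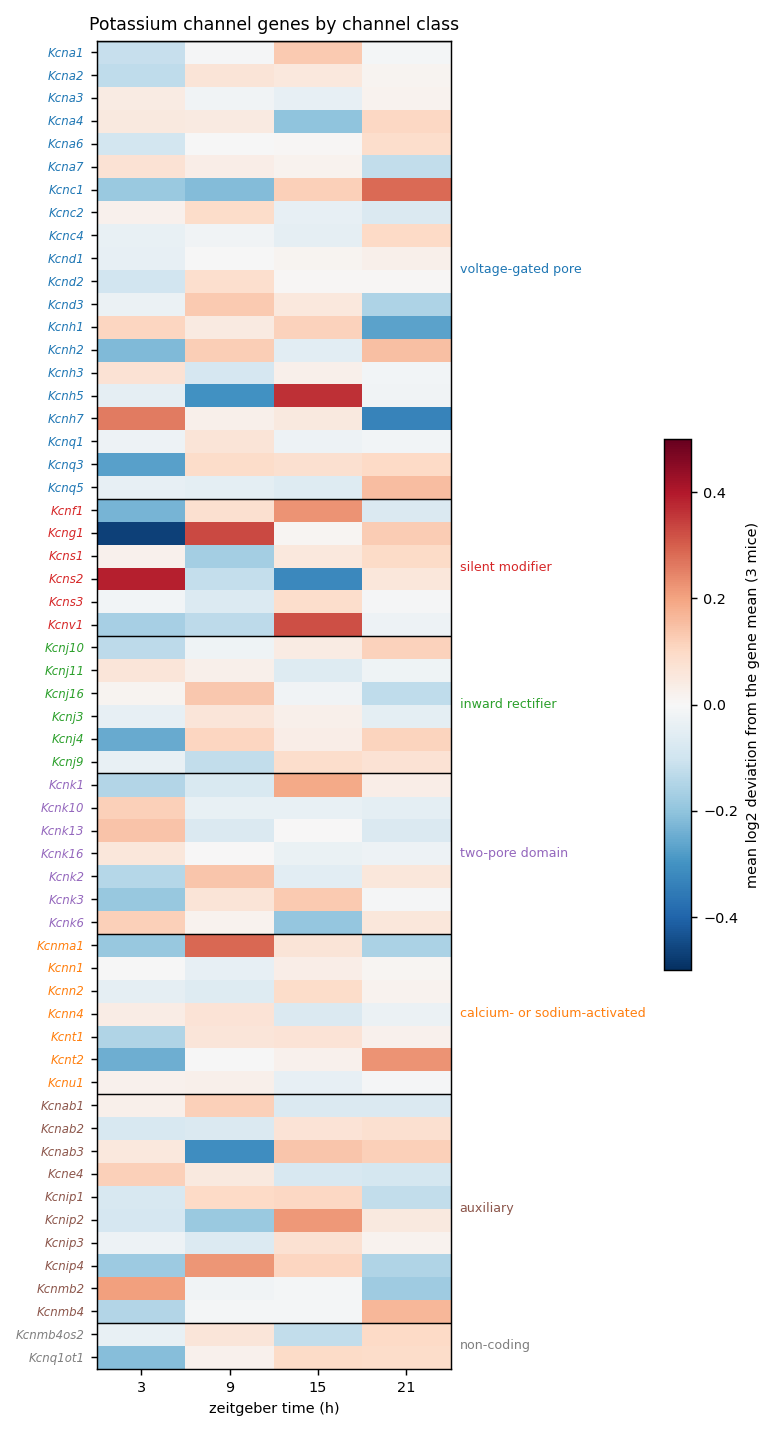
Mean log2 deviation from each gene's own mean (colour scale) at ZT3, ZT9, ZT15 and ZT21 (horizontal axis, zeitgeber time in hours) for the 58 members, grouped by channel class, each cell the mean of 3 mice. Strong colours stand out for Kcng1, Kcns2 and Kcnv1 among the silent modifiers and for Kcnh5 among the pore-forming subunits. At no time of day does a whole class of channel genes turn one colour. The 2 non-coding transcripts are both below their means at ZT3 and both above at ZT9 and ZT21.

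The comparison of dark with light (ZT15 with ZT21 against ZT3 with ZT9) asks whether channel genes differ between the active and the rest phase of this nocturnal animal. No member passed limma's moderated test at an adjusted p under 0.05, where the background was 0.0955% higher in the dark and 0% lower. Before adjustment, at p under 0.05, 6 members were higher in the dark (Kcnc1, Kcnh5, Kcnip2, Kcnk1, Kcnt2 and Kcnv1; background 8.88%) and 1, Kcns2, was lower (background 6.63%). With 1 probe set per gene, as for the members, these shares were 9.9% and 4.15% of all genes. The median difference was 0.04 over members and 0.02 over all genes. No member had its 6 dark arrays all above its 6 light arrays (background 0.478%) or all below them (background 0.199%). The 95% confidence interval of the difference of 52 members lay within 0.5 log2 of no difference, and that of all 58 within 1 log2.

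Early night against early day (ZT15 against ZT3) held the most members at p under 0.05 before adjustment. None of the 58 passed at an adjusted p under 0.05 (background 0.27% higher, 0% lower). At the unadjusted p 9 were higher at ZT15 (Kcnf1, Kcnh5, Kcnip2, Kcnj4, Kcnk1, Kcnk3, Kcnq3, Kcnt1 and Kcnv1; background 9.99%) and Kcns2 was lower (background 2.63%). Of all genes, with 1 probe set each, 11% were higher and 2.44% lower at that p. The 3 arrays of ZT15 lay above the 3 of ZT3 for 12 members, against 15.3% of all probe sets, and below them for 3, Kcns2, Kcnk16 and Kcnn4, against 6.96%. The median difference was 0.09 over members and 0.07 over all genes, with 36 of 58 members (62.1%) and 65.9% of all genes higher at ZT15, but 28 of 58 members were higher after quantile normalization, with a median of -0.0090. The intervals of 35 members lay within 0.5 log2 of no difference and those of 57 within 1 log2, with Kcns2 as the exception.

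**Figure D2:**
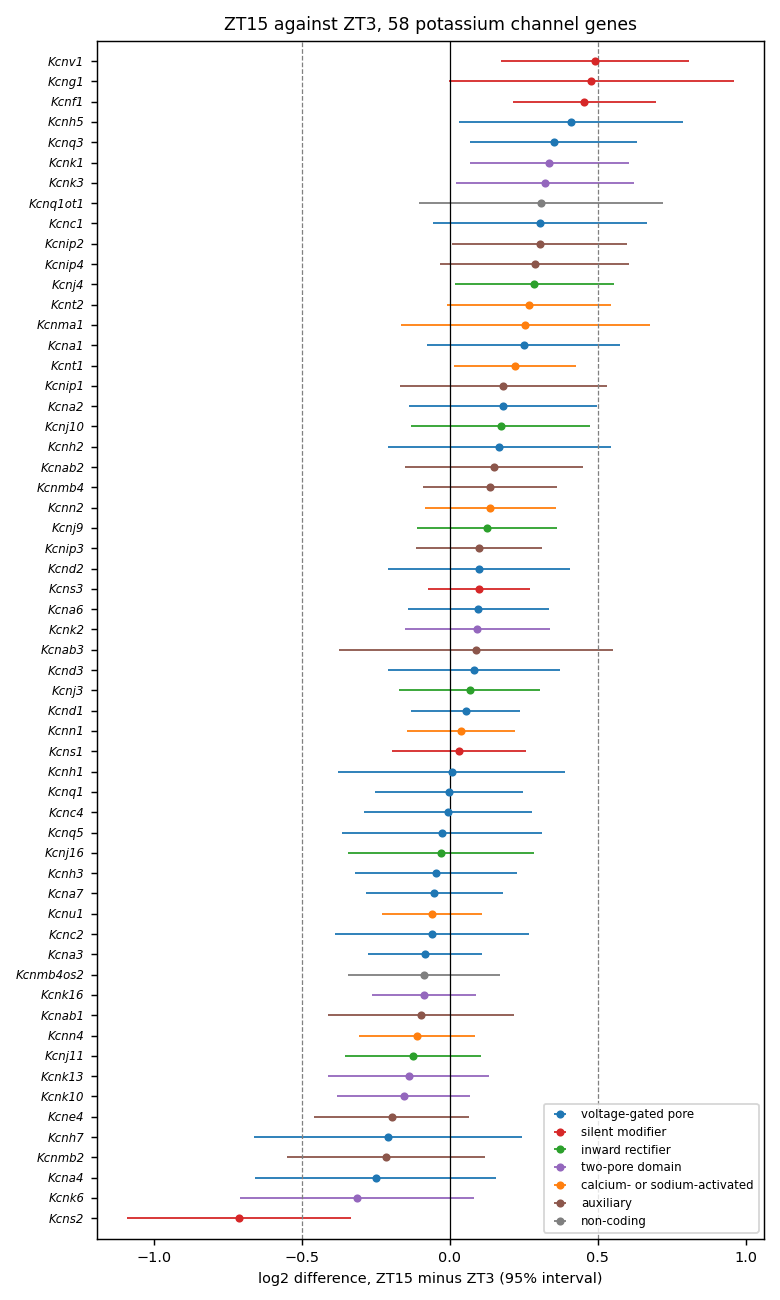
Difference of ZT15 minus ZT3 in log2 intensity (horizontal axis) with its 95% confidence interval from limma for the 58 members (rows, 3 mice per time point, colours by channel class), dashed lines at 0.5 either side of no difference. Kcnv1, Kcng1 and Kcnf1 are at the top and Kcns2, at -0.71, stands apart at the bottom.

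Between ZT21 and ZT9 0 members passed at an adjusted p under 0.05 (background 0.00415% higher, 0% lower). At p under 0.05 before adjustment, Kcnc1 and Kcns1 were higher at ZT21 (background 4.19%, or 4.55% of all genes). Kcnip4 and Kcnma1 were lower (background 9.15%, or 7.42% of all genes). The arrays did not overlap for 4 members higher at ZT21, Kcnc1, Kcnmb4, Kcnn2 and Kcns1 (background 5.28%), and for 1 lower, Kcnj16 (background 6.83%). Between ZT15 and ZT9, across lights off, 0 members passed (background 0.154% higher and 0.0166% lower), and Kcnh5, Kcnip2 and Kcnv1 were higher at an unadjusted p under 0.05 (background 3.8%) with 0 lower (background 3.48%). Of all genes 3.84% were higher and 4.16% lower at that p. Here the arrays did not overlap for 7 members higher at ZT15, Kcnh5, Kcnip2, Kcnj9, Kcnk1, Kcns1, Kcns3 and Kcnv1 (background 4.54%), and for 2 lower, Kcnn4 and Kcnu1 (background 5.04%). The members did not share a time of day. Their highest mean fell at ZT3 for 12 (20.7%, against 15.8% of all genes), at ZT9 for 14 (24.1%, against 32.2%), at ZT15 for 17 (29.3%, against 23.8%) and at ZT21 for 15 (25.9%, against 28.2%). Their lowest fell at ZT3 for 22 (37.9%), against 45.5% of all genes. After quantile normalization the highest mean fell at ZT3 for 17, at ZT9 for 10, at ZT15 for 12 and at ZT21 for 19. On that scale 14 had their lowest mean at ZT3.

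Among the 20 pore-forming subunits of voltage-gated channels, 3 stood at an unadjusted p under 0.05 (15.6% of all probe sets), and the median range was 0.21. No class was tested as a set. Kcnh5, a channel of the ether-a-go-go family (probe set 1441742_at), had log2 intensities of 7.50, 7.58 and 7.21 at ZT3, 6.95, 7.49 and 7.07 at ZT9, 8.06, 7.61 and 7.84 at ZT15, and 7.40, 7.27 and 7.71 at ZT21. All ZT15 arrays lay above all ZT3 and ZT9 arrays and overlapped those of ZT21. The level at ZT15 was 0.67 higher than at ZT9 (95% interval 0.29 to 1.05, adjusted p = 0.275 from limma). Kcnc1, which gives fast-spiking interneurons their rapid repolarization (probe set 1443855_at), had 9.74, 9.84 and 9.47 at ZT3, 9.91, 9.66 and 9.38 at ZT9, 9.87, 9.76 and 10.32 at ZT15, and 10.17, 10.14 and 10.14 at ZT21. The ZT21 arrays lay close together and above all light arrays, while ZT15 spread across both. The endothelial marker sum was also highest at ZT21, and its part in this value was not tested. The difference of Kcnc1 in of dark minus light was 0.40 (95% interval 0.15 to 0.66, adjusted p = 0.197 from limma).

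Kcnq3, a subunit of the channel that carries the M-current, a slow brake on firing, had 9.95, 9.91 and 9.98 at ZT3, 10.56, 10.25 and 10.11 at ZT9, 10.20, 10.20 and 10.49 at ZT15, and 10.27, 10.20 and 10.47 at ZT21. Its 3 arrays of ZT3 lay below the 9 others, which overlapped each other (range 0.37, standard error 0.13, adjusted p = 0.303 from limma). Kcnh7, of the ERG branch, had its lowest mean at ZT21, 6.54 ± 0.38, and its highest at ZT3, 7.13 ± 0.32 (SD, n = 3 each), and did not pass (adjusted p = 0.361 from limma). On the probe sets that stood for them, the 6 members of the Kcna family had ranges of 0.08 to 0.31 and adjusted p of 0.562 to 0.874. There Kcna1 and Kcna2, axonal channels that limit repetitive firing, had ranges of 0.25 (standard error 0.15) and 0.19 (standard error 0.15). Other probe sets had ranges of up to 0.68 for Kcna2 and 0.67 for Kcna6 (lowest adjusted p of 0.387 and 0.350 from limma). Kcnd1 and Kcnq1, at the edge of the limit, had ranges of 0.07 and 0.09.

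**Figure D3:**
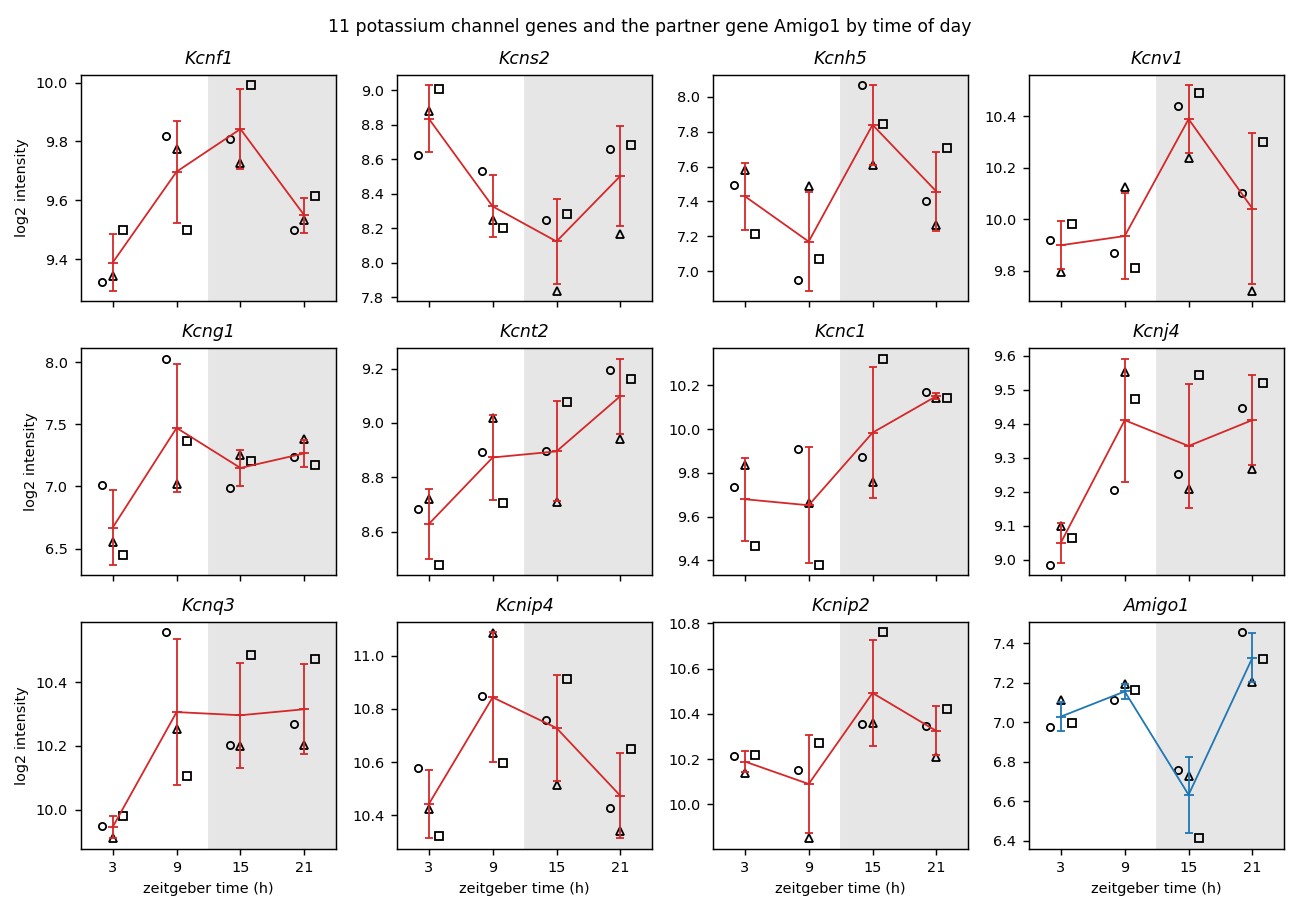
Log2 intensity of 11 members and the partner gene Amigo1 (vertical axes, separate scale for each gene) at ZT3, ZT9, ZT15 and ZT21 (horizontal axis, zeitgeber time in hours, grey for the dark), with each mouse as a circle, triangle or square (replicates 1, 2 and 3) and lines through the means with SD (n = 3). Kcnf1, Kcnh5 and Kcnv1 are highest at ZT15, where Kcns2 is lowest.

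Of the 6 silent modifiers, 4 stood at an unadjusted p under 0.05 (15.6% of all probe sets), and the median range was 0.47. Kcnf1 (probe set 1454768_at) had the smallest F-test p of all members. Its log2 intensities were 9.32, 9.34 and 9.50 at ZT3, 9.82, 9.78 and 9.50 at ZT9, 9.81, 9.73 and 9.99 at ZT15, and 9.50, 9.53 and 9.61 at ZT21. All ZT15 arrays lay above all arrays of ZT3 and ZT21, and ZT9 overlapped its neighbours. The difference of ZT15 minus ZT3 was 0.45 (95% interval 0.21 to 0.70, adjusted p = 0.128 from limma). Kcnv1 (probe set 1439333_at) had 9.92, 9.80 and 9.98 at ZT3, 9.87, 10.12 and 9.81 at ZT9, 10.44, 10.24 and 10.49 at ZT15, and 10.10, 9.72 and 10.30 at ZT21. The ZT15 arrays lay above all light arrays, and ZT21 had the widest spread. The difference of ZT15 minus ZT3 was 0.49 (95% interval 0.17 to 0.81, adjusted p = 0.205 from limma).

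Kcns2 (probe set 1457325_at) had the opposite profile to these 2 genes. It had 8.62, 8.88 and 9.01 at ZT3, 8.53, 8.25 and 8.20 at ZT9, 8.25, 7.84 and 8.28 at ZT15, and 8.66, 8.17 and 8.68 at ZT21. The ZT3 arrays lay above all arrays of ZT9 and ZT15 and overlapped ZT21. ZT15 minus ZT3 was -0.71 (95% interval -1.09 to -0.33, adjusted p = 0.128 from limma). Kcng1 (probe set 1457052_at), with the widest range of any member, had 7.01, 6.55 and 6.45 at ZT3, 8.03, 7.02 and 7.36 at ZT9, 6.99, 7.26 and 7.20 at ZT15, and 7.24, 7.39 and 7.17 at ZT21. Its peak at ZT9 rested largely on replicate 1 of that time. The SD between mice was 0.11 at ZT21, against 0.51 at ZT9. Kcns1 and Kcns3 had ranges of 0.26 and 0.15, with limma's adjusted p at 0.382 and 0.564.

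Promoter sequence is shown for 3 of the genes above that were highest in the dark on the probe set that stood for them. Clock and activity signals reach genes through short motifs near the start. These are the 250 bases before the annotated start in RefSeq (GRCm38.p6), and capitals mark a cAMP response half-site, TGACG on either strand. Kcnf1 lies at chr12:17176889-17177138 on the minus strand, Kcnh5 at chr12:75177333-75177582 on the minus strand and Kcnc1 at chr7:46396218-46396467 on the plus strand.
Kcnf1: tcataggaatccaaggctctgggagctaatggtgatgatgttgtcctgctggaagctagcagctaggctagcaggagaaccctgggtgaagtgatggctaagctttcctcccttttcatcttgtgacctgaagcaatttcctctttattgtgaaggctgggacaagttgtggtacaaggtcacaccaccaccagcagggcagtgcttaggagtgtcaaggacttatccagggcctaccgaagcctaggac
Kcnh5: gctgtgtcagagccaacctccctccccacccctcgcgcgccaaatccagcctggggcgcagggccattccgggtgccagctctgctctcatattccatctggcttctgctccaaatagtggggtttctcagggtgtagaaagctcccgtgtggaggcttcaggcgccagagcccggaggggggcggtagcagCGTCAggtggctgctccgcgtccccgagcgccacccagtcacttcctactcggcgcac
Kcnc1: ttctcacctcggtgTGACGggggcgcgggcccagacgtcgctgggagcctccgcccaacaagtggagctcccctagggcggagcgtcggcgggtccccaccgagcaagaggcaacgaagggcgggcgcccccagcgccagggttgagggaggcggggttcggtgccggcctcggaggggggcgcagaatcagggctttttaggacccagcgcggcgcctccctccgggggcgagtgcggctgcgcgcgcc

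The half-site began at -58 in Kcnh5 and at -236 in Kcnc1, counted from the annotated start, and no match of any motif searched lay in the Kcnf1 window. Of the 58 members 43 matched the table, with 65 promoters, and 10 of these promoters (15.4%) held the half-site, against 17.8% of 32851 promoters. The full cAMP response element TGACGTCA, which holds the half-site, was in 0 of 65 (1.55% of all promoters). The E-box CACGTG, bound by the clock's activators, was in 4 of 65 (6.15%, against 6.02%), in Kcnab1, Kcne4 and Kcnn4, and the D-box TTATGTAA, on both strands, was in 0 (0.819% of all promoters). The shares of the E-box and of the half-site among members were thus near those of all promoters.

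Inward rectifiers and two-pore domain channels set the resting potential, and 1 of their 13 genes stood at an unadjusted p under 0.05 (15.6% of all probe sets). Kcnj4, a strongly rectifying channel of forebrain neurons, had log2 intensities of 8.99, 9.10 and 9.06 at ZT3, 9.21, 9.55 and 9.47 at ZT9, 9.25, 9.21 and 9.54 at ZT15, and 9.45, 9.27 and 9.52 at ZT21. The ZT3 arrays lay below the 9 others (range 0.36, standard error 0.12, adjusted p = 0.303 from limma). After quantile normalization 0 of the 6 inward rectifiers stood at an unadjusted p under 0.05 (19.1% of all probe sets), so Kcnj4 did not. On that scale 1 of the 7 two-pore genes stood there. Kcnj10, the main rectifier of astrocytes, had a range of 0.25, Kcnj3 and Kcnj9, opened by G proteins, had 0.11 and 0.21, and Kcnj11, the pore of the ATP-sensitive channel, had 0.12, all at adjusted p of 0.496 to 0.821. Among the two-pore domain genes, Kcnk1 had 10.47, 10.38 and 10.37 at ZT3, 10.51, 10.59 and 10.33 at ZT9, 10.65, 10.62 and 10.95 at ZT15, and 10.53, 10.44 and 10.79 at ZT21. Its ZT15 arrays lay above all light arrays and overlapped ZT21 (ZT15 minus ZT3 0.34, 95% interval 0.07 to 0.60, adjusted p = 0.298 from limma). The 6 other two-pore genes had ranges of 0.09 to 0.32.

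Of the 7 genes of channels opened by calcium or sodium, or their relatives, 1 stood at an unadjusted p under 0.05 (15.6% of all probe sets), the sodium-activated channel Kcnt2. It had 8.68, 8.72 and 8.48 at ZT3, 8.89, 9.02 and 8.71 at ZT9, 8.90, 8.71 and 9.08 at ZT15, and 9.19, 8.94 and 9.16 at ZT21. The ZT21 arrays lay above all ZT3 arrays and overlapped ZT9 and ZT15. Dark minus light was 0.25 (95% interval 0.05 to 0.44, adjusted p = 0.241 from limma). Kcnma1, the large-conductance channel that responds to calcium and voltage, was highest at ZT9, at 11.30 ± 0.27, and had 10.83 ± 0.29 at ZT3, 11.08 ± 0.29 at ZT15 and 10.86 ± 0.21 at ZT21 (SD, n = 3 each), with limma's adjusted p at 0.376. The small-conductance genes Kcnn1 and Kcnn2 and the intermediate-conductance gene Kcnn4 had ranges of 0.08, 0.16 and 0.14, and Kcnu1, a sperm channel of the same family as Kcnma1, had 0.07.

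Among the 10 auxiliary subunits 1 stood at an unadjusted p under 0.05 (15.6% of all probe sets). Kcnip4, a calcium-binding partner of the Kcnd channels that carry the A-type current, had 10.58, 10.42 and 10.32 at ZT3, 10.85, 11.09 and 10.60 at ZT9, 10.76, 10.51 and 10.91 at ZT15, and 10.43, 10.34 and 10.65 at ZT21. Its ZT9 arrays lay above those of ZT3 and overlapped both night times. ZT21 minus ZT9 was -0.37 (95% interval -0.69 to -0.05, adjusted p = 0.318 from limma). Kcnip2, of the same family, averaged 10.49 ± 0.23 at ZT15 and 10.09 ± 0.22 at ZT9 (SD, n = 3 each), with all ZT15 arrays above all light arrays (dark minus light 0.27, 95% interval 0.06 to 0.48, adjusted p = 0.237 from limma). Kcnmb4, the neuronal partner of Kcnma1, averaged 11.21 ± 0.10 at ZT21 and 10.89 ± 0.11 at ZT3, with SDs over 3 mice (adjusted p = 0.347 from limma). Like Kcnt2, it was highest at ZT21, the time of the highest endothelial marker sum, whose part was not tested. The beta subunits Kcnab1 and Kcnab2 of the Kcna channels had ranges of 0.19 and 0.16, and that of Kcnab3, 0.45, came with an SD of 0.44 at ZT9, where replicate 1 read 7.97. The second probe set of Kcnab3 had a range of 0.72 with the same highest and lowest times (adjusted p = 0.309 from limma). That of Kcnab1 had a range of 0.65 and shared neither time (adjusted p = 0.290 from limma). Kcne4, which inhibits several voltage-gated channels, had a range of 0.21. The 2 non-coding transcripts Kcnq1ot1 and Kcnmb4os2 had ranges of 0.31 and 0.22, with limma's adjusted p at 0.595 and 0.537.

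**Figure D4:**
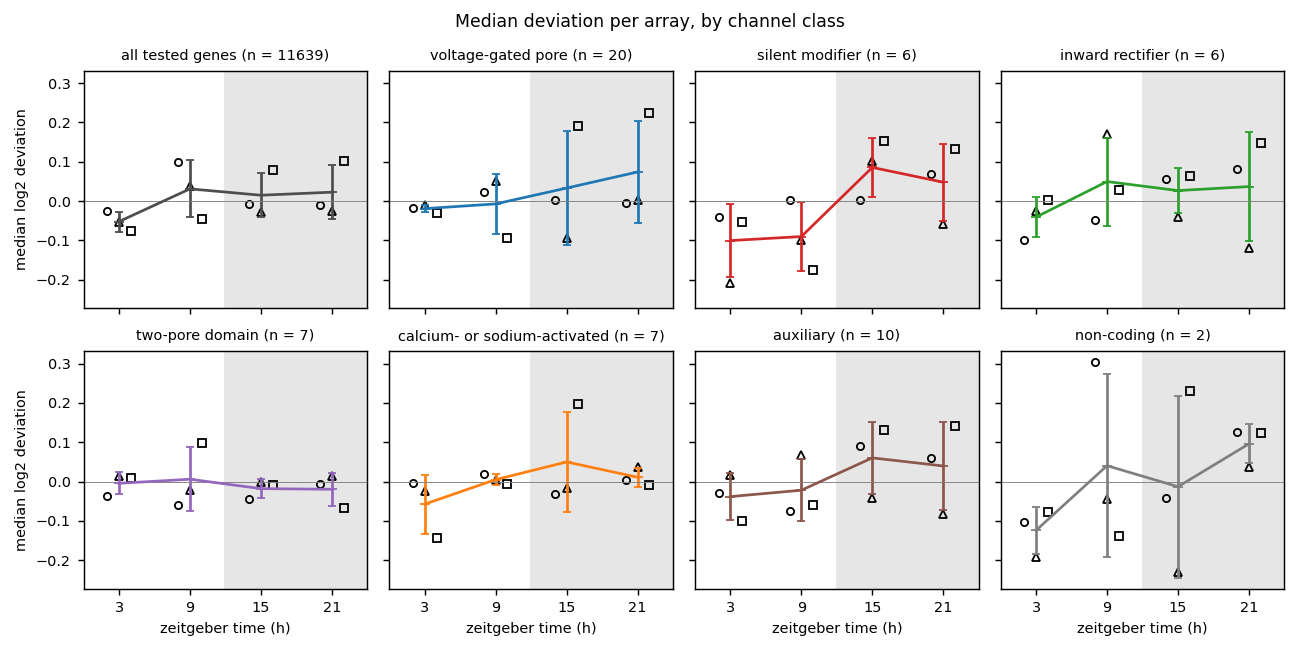
Median log2 deviation from each gene's own mean (vertical axis) per array at ZT3, ZT9, ZT15 and ZT21 (horizontal axis, zeitgeber time in hours, grey for the dark) for all 11639 tested genes and for each channel class, with arrays as circle, triangle and square (replicates 1, 2 and 3) and lines through the means with SD (n = 3). The silent modifiers average 0.09 at ZT15 and -0.10 at ZT3, and in the pore-forming class ZT15 replicate 3 and ZT21 replicate 3 stand at 0.19 and 0.22.

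The median deviation from each gene's own mean shows how the members lay on each array. Over all members it was 0.13 on ZT15 replicate 3 and 0.11 on ZT21 replicate 3, which are among the 4 arrays of higher overall signal, and -0.05 to 0.04 on the 10 others. Over all tested genes it was 0.08 and 0.10 on those arrays, and 0.10 on ZT9 replicate 1, where the members stood at -0.0064. In the pore-forming class it was 0.19 and 0.22 on those arrays and -0.09 on ZT15 replicate 2 and on ZT9 replicate 3. The silent modifiers averaged -0.10 ± 0.09 at ZT3, -0.09 ± 0.09 at ZT9, 0.09 ± 0.08 at ZT15 and 0.05 ± 0.10 at ZT21 (SD, n = 3 each), and the two-pore genes stayed between -0.07 and 0.10 on every array.

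The calls depended on how the arrays were scaled. After quantile normalization, which forces the 12 arrays to 1 distribution, 8 of 58 members (13.8%) passed the F-test (adjusted p under 0.20), against 9.38% of all probe sets. They were Kcns2 (adjusted p = 0.121 from limma), Kcnt2 (0.167), Kcnv1 (0.170), Kcnc1 (0.172), Kcnh5 (0.177), Kcnf1 (0.179), Kcnmb4 (0.185) and Kcnk1 (0.197). Kcns2 was lowest at ZT15 and highest at ZT3, and the 7 others had their highest mean in the dark, Kcnv1, Kcnh5, Kcnf1 and Kcnk1 at ZT15 and Kcnt2, Kcnc1 and Kcnmb4 at ZT21. On that scale Kcns2 differed by -0.81 between ZT15 and ZT3 (adjusted p = 0.061 from limma). Centring each array on its median gave 4 of these 8, Kcnf1, Kcnh5, Kcns2 and Kcnv1 (background 6.21%).

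**Figure D5:**
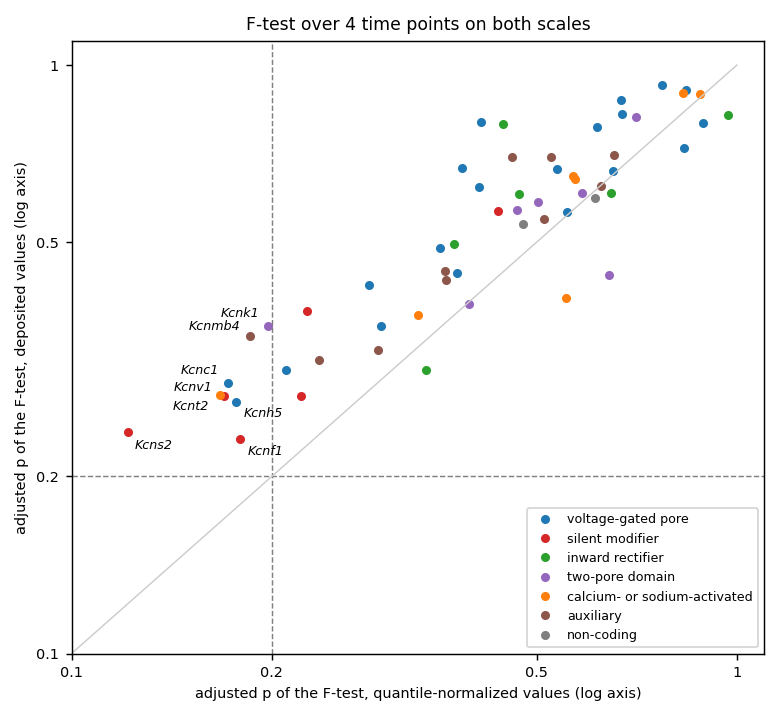
Adjusted p of limma's F-test over 4 time points on the deposited values (vertical axis, log scale) and on quantile-normalized values (horizontal axis, log scale) for the 58 members, coloured by channel class, dashed lines at 0.20. The 8 named genes lie left of the vertical line and all 58 members lie above the horizontal one.

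Several members had more than 1 tested probe set, and these often disagreed. For the 32 such genes, with 81 probe sets, all probe sets had their highest mean at the same time in 14 and their lowest in 10, and 26 of the 49 other probe sets had a wider range than the one that stood for the gene. Over all 107 tested probe sets of the members 0 passed the F-test at 0.20 (background 2.01%). At an unadjusted p under 0.05 stood 18 (16.8%, background 15.6%). After quantile normalization, where 9.38% of all probe sets passed, 9 of the 107 (8.41%) did, from the same 8 genes. Kcnv1 was the gene with 2 of them. Its second probe set, 1453273_at, was also highest at ZT15 (range 0.35, standard error 0.10), and the third had a range of 0.17. Kcnip2 had its highest mean at ZT15 and its lowest at ZT9 on both of its probe sets, with 0.65 (standard error 0.15, adjusted p = 0.222 from limma) on 1425870_a_at. The second probe sets of Kcnf1 and Kcns2 had ranges of 0.18 and 0.19. The 3 probe sets of Kcnc1 did not all share the time of their highest mean, nor that of their lowest.

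The widest range of any probe set belonged to Kcnd3, a subunit of the A-type channel. Probe set 1447513_at had log2 intensities of 7.25, 7.92 and 7.64 at ZT3, 6.70, 7.85 and 7.44 at ZT9, 7.52, 7.50 and 6.49 at ZT15, and 6.66, 6.16 and 6.51 at ZT21. Its ZT21 arrays lay below those of the light, with ZT15 replicate 3 at the same low level (range 1.16, standard error 0.32, adjusted p = 0.274 from limma). The probe set that stood for the gene, 1435720_at, had a range of 0.29 (standard error 0.13). Probe sets of 1 gene can read different transcript ends, and which of them reads which was not tested.

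Genes whose products work beside potassium channels were read from a list of 28, of which 21 were on the arrays with a single symbol and 18 passed the limit. Of these 18, read by their brightest probe set, 1 passed the F-test (adjusted p under 0.20, against 2.01% of all probe sets) and 3 stood at an unadjusted p under 0.05 (against 15.6%), Amigo1, Dpp10 and Hcn2. Amigo1 encodes an adhesion protein that accompanies the Kcnb channels of the cell body (probe set 1427373_at). It had log2 intensities between 6.98 and 7.11 at ZT3, 7.11, 7.19 and 7.16 at ZT9, 6.76, 6.73 and 6.41 at ZT15, and 7.46, 7.21 and 7.32 at ZT21. The ZT15 arrays lay below, and the ZT21 arrays above, those of every other time. Its range of 0.70 had a standard error of 0.11 (adjusted p = 0.0846 in limma's F-test). This call did not hold without ZT3 replicate 2 (0.226), ZT3 replicate 3 (0.208) or ZT21 replicate 1 (0.215), and 2 other probe sets of the gene did not pass (adjusted p of 0.60 and 0.31). On 1 of these, 1447811_s_at, the ZT15 arrays lay above those of ZT3, with 5.81, 5.85 and 5.87 at ZT15 and 5.61, 5.76 and 4.92 at ZT3, so that ZT15 minus ZT3 was 0.41 there and -0.40 on the brightest probe set. Dpp10, a partner of the Kcnd channels, had a range of 0.45 (adjusted p = 0.290 from limma), and Hcn2, a channel that opens on hyperpolarization, had 0.43 (0.302). Over all 41 tested probe sets of these genes 1 more passed (background 2.01%), 1457374_at of Nedd4l, a ubiquitin ligase that acts on membrane channels. It had 7.72, 7.25 and 7.45 at ZT3, 7.94, 7.92 and 7.78 at ZT9, 8.05, 7.99 and 8.39 at ZT15, and 7.97, 7.89 and 7.95 at ZT21. The ZT3 arrays lay below the 9 others (range 0.67, standard error 0.13, adjusted p = 0.178 from limma). The brightest probe set of Nedd4l, 1441305_at, ranged over 0.22 and was not called (adjusted p = 0.684 from limma). Both it and 1423269_a_at were also lowest at ZT3. By contrast, 1423270_at and 1456044_at were highest at ZT3, and 1437400_at was lowest at ZT21.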

How the data were processed

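RNA of the prefrontal cortex was hybridized to Affymetrix Mouse430_v2 arrays, from 5 µg of total RNA per mouse. The authors deposited linear intensities per probe set that GCRMA had produced in GeneSpring, and their detection calls came from MAS 5.0. The deposited table holds no calls. A mean log2 of at least 5 over the 12 arrays therefore stood in for the authors' filter, and left 24075 of 45037 probe sets, with 64 control probe sets left out. Gene symbols came from the platform annotation, with 34945 probe sets carrying 1 symbol, 932 several and 9160 none. Any 2 arrays correlated at 0.969 to 0.994.

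The log2 values were fitted without a replicate block in limma (version 3.58.1, R version 4.3.3), with lmFit and eBayes. P-values of the moderated F-test over 4 time points received a Benjamini-Hochberg adjustment across the whole set of 24075 probe sets, at a threshold of 0.20, and those of the contrasts, two-sided, at 0.05. The code was tested on simulated data where the answer was known. Named members were the 15 with the smallest F-test p, the member with the smallest p in each subfamily, the 5 with the highest mean and those at the limit, and the partner genes that passed or else the 3 with the smallest p. Other genes were named after their values were seen, and the promoters shown were chosen in the same way. The members and lists were chosen with earlier results of these data known. Promoters were searched with pandas 2.3.3 in Python 3.11.15, and figures were drawn with matplotlib 3.10.9. The number of arrays limits the precision, and scan dates are not given in the sources used here.

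The alternatives were quantile normalization, centring on the array median, no filter, the 15000 brightest probe sets, members with a mean of at least 7, a pseudocount of 16, a robust prior with an intensity trend, array weights, no moderation, a block for the replicate number, the mean of a gene's probe sets, each array left out in turn and, added after seeing the data, leaving out the 2 non-coding transcripts.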

Additional observations from a re-analysis of the deposited data

How the results depend on the processing

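The count of 0 members past the F-test of limma stood with no filter (0.431% of all probe sets) and a pseudocount of 16 (1.81%). It also stood with an intensity trend and robust prior (1.77%), no moderation (0.328%) and the replicate block (0.382%). The mean of a gene's probe sets (2.02%), the limit of 7 (44 members, 2.01%) and leaving out the 2 non-coding transcripts (2.01%) gave 0. With shares this low, a count of 0 is close to the background. The count became 8 after quantile normalization (9.38%), 4 after centring (6.21%) and 34 with array weights, where 60.6% of all probe sets passed. For the 15000 brightest probe sets it was 3 of 41, Kcnf1, Kcnh5 and Kcns2, against 8.87% of these probe sets. With array weights 25 members stood at an unadjusted p under 0.05 (46.6% of all probe sets), and the contrasts called 3 (dark minus light, 12%), 3 (ZT15 minus ZT3, 4.32%), 8 (ZT21 minus ZT9, 18.7%) and 0 (ZT15 minus ZT9, 0.361%). Under every other alternative run the contrasts called 0 members, against 0.00222% to 0.773% of the probe sets tested. The cause was not tested.

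Leaving out 1 array gave counts of 0 to 7. The count was 7 without ZT9 replicate 1 (Kcnc1, Kcnf1, Kcng1, Kcnj4, Kcnk3, Kcnq3 and Kcns2, against 13% of all probe sets). It was 5 without ZT21 replicate 3 (Kcnf1, Kcnh1, Kcnh5, Kcns2 and Kcnv1, against 12%). It was 3 without ZT9 replicate 3 (Kcnf1, Kcnip4 and Kcns2, against 7.41%) and 1 without ZT15 replicate 3 (Kcns2, against 5.99%). Without each of the 8 others it was 0, against 0.166% to 1.25% of all probe sets. The 10 members at an unadjusted p under 0.05 became 6 without moderation (11.5% of all probe sets) and 4 to 12 with 1 array left out, with 6, 4 and 5 without ZT3 replicate 2, ZT3 replicate 3 and ZT21 replicate 1 (9.66%, 9.78% and 9.84% of all probe sets). The median of ZT15 minus ZT3, 0.09, became -0.0090 after quantile normalization and 0.0096 after centring, and was 0.04 to 0.12 with 1 array left out.

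The labels do not say whether the replicate numbers pair the mice, and 3 arrays per time are too few for residuals to settle it. Residuals of arrays with the same number correlated at -0.04 on average, those with different numbers at 0.03, and 3 of 12 arrays correlated best with their own number. With the replicate block 0 members passed the F-test (0.382% of all probe sets) and 9 stood at an unadjusted p under 0.05 (12.3%). Amigo1 was lost with this block (adjusted p = 0.205 from limma). Amigo1 was also lost without moderation (0.203). Over 28 named genes and these alternatives, 581 of 635 F-test results kept their side of the threshold, 49 came to pass and 5, all of Amigo1, no longer passed. With 3 mice per time, a change of under 0.5 log2 was within the interval of many members, and signal near background limits the dimmest.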
